A study of Mus musculus with 12 samples.

Results

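The genes described here act in G2, mitosis and cytokinesis. They are 53 genes, fixed by symbol and taken from the mitotic kinases and cyclins, the spindle, the kinetochore, the spindle checkpoint, anaphase and cell division, with Mki67 and Cdc20 as markers. All 53 were found among the 19429 genes listed in either of the 2 deposited tables, and all 53 passed the filter on low values in both comparisons. The cells were cultured stromal vascular fraction from white adipose tissue of 6-week-old C57BL/6 mice, a mixed primary culture that holds fat-cell progenitors, and messenger RNA was measured in 12 libraries in 4 groups of 3. WT cells were wild type, and TKO cells were null for miR-26b (miR-26b-/-) and for both miR-26a genes (miR-26a-1-/- together with miR-26a-2-/-). CTL and Dox cells came from the M2rtTA;eGFP.miR-26a line, in which doxycycline switches on miR-26a; the promoter behind M2rtTA is not given in the sources used here. Dox cells received doxycycline at 1 mg/ml for 4 days, as the labels print the dose, while CTL cells carried both transgenes untreated. There was no group that received doxycycline without the transgene, so the drug and the microRNA cannot be told apart. The labels do not say whether the 3 libraries of a group came from separate animals, so each p-value measures the spread between these samples, which may be technical.

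A dividing cell enters mitosis when Cdk1, bound to a B-type cyclin, is freed from the inhibitory phosphate that Wee1 adds and Cdc25 phosphatases remove. Chromosomes are then compacted by condensin, attached through kinetochores to a spindle built by motors and microtubule-binding proteins, and held by a checkpoint until every kinetochore is attached. Cdc20 then activates the anaphase-promoting complex, an ubiquitin ligase whose targets include B-type cyclins and securin. Transcription of these genes peaks late in the cycle and depends on Foxm1 and on the MuvB core, which joins either B-Myb or the repressive DREAM complex. MuvB binds the cell cycle genes homology region (CHR), a short promoter element whose common form is TTTGAA, often downstream of CCAAT boxes bound by NF-Y. Confluency, to which every group was grown, is a state in which contact between cells usually lowers division.

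The microRNAs removed or induced in these cells share 1 seed, bases 2 to 8, in capitals below. The mature sequences are from RefSeq on GRCm38.p6. Mature miR-26b-5p lies at chr1:74394324-74394344 on the plus strand, and miR-26a-5p is encoded at chr9:119031811-119031832 and chr10:126995543-126995564, both plus strand.
miR-26a-5p: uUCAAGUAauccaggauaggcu
miR-26b-5p: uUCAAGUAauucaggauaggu

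Few of the mitotic genes carried a match to that seed in the 3' untranslated region (UTR). The 8-base match TACTTGAA was present in 0 of 53 members and in 4.96% of the 11774 tested genes with a 3' UTR. A 7-base match, TACTTGA or ACTTGAA, both of them parts of the 8-base match, was present in 5 of 53 (9.43%) against 20.7%. These shares were not adjusted for the length of the 3' UTR, on which the number of matches depends. The 5 were Birc5, Cdk1, Knstrn, Mad2l1 and Smc2, searched on the transcript strand of 1 transcript per gene (GENCODE vM21, GRCm38). Cdk1 and Smc2 are shown because they are the pair among the 5 whose level differed between WT and TKO, in opposite directions. The capitals mark the match. Both Cdk1 sites lie in exon 8 on the minus strand, at chr10:69337015-69337021 and chr10:69335599-69335605, and the Smc2 site lies in exon 25 on the plus strand at chr4:52487135-52487141. A match is a description of these letters and not a measured site of binding.
Cdk1, first site: atttgaagcacACTTGAAgttaacaaatt
Cdk1, other site: ccagacatcagACTTGAAgaggcaaccga
Smc2: atacaccgagcTACTTGAggtcagtcctg

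The promoters of the members shared the CHR letters, a feature that the choice of members did not use. RefSeq promoters (GRCm38.p6, 250 bases before to 50 after the start) matched 45 of 53 members by symbol. TTTGAA on either strand was found in 32 of the 45 (71.1%), against 20.2% of all 27025 genes with such a promoter and 14.2% of those tested in TKO against WT. CCAAT on either strand was found in 32 of 45 (71.1%) against 41.1% of all genes, and both motifs in 27 (60%) against 7.97%. A match to one of these motifs does not contain the other. In 29 of the 32 members with TTTGAA (90.6%) the middle of the nearest match lay within 50 bases of the start. The share was 29.4% of the 5466 genes of any kind that held one. TTTGAA was present in 3 of the 4 members that rose in TKO, 10 of the 14 that fell and 19 of the 27 that did not pass, among those with a promoter. Windows of 30 bases are shown for 8 members, those with the smallest p in TKO among the members named with values that held a match. Smc4, Tpx2, Foxm1 and Nusap1, with a smaller p than Hmmr, were passed over because no match was found for them. The windows of genes that rose (Cdc20, Cenpa, Cdk1) come before those of genes that fell (Mki67, Kif20b, Smc2, Hmmr, Kif23), motif in capitals. They lie at chr4:118437344-118437373 (minus strand), chr5:30666890-30666919 (plus), chr10:69352910-69352939 (minus), chr7:135716460-135716489 (minus), chr19:34922353-34922382 (plus), chr4:52439235-52439264 (plus), chr11:40733412-40733441 (minus) and chr9:61946780-61946809 (minus), in the order printed.
Cdc20: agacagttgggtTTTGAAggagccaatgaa
Cenpa: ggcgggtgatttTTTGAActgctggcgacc
Cdk1: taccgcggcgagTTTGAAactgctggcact
Mki67: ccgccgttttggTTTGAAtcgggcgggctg
Kif20b: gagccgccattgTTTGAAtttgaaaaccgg
Smc2: ctcgcgccgaaaTTCAAAggaacagttccg
Hmmr: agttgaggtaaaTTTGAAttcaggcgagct
Kif23: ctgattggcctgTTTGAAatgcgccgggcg
The Smc2 window carries the element on the opposite strand, and the Kif20b window holds a further copy in lower case. The middle of the Mki67 copy lay 95 bases before the start, that of the Cdc20 copy 15 bases before it, and that of the Kif23 copy 5 bases after it.

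Depth was between 54978109 and 83461531 recovered reads in WT and TKO and between 19301969 and 25785439 in CTL and Dox. Signal is the deposited read count scaled to a common library size. Even the lowest member value, a signal of 6.27, stood for 133 reads. Among 7 progenitor markers (Pdgfra, Pdgfrb, Ly6a, Cd34, Dcn, Col1a1, Thy1) summed signal was 13288 to 21112 over the libraries, most of it from Col1a1, and 10 leukocyte markers summed to 29.2 to 281. Levels of miR-26 itself were not analysed here, so the genotype and induction labels were not checked on it. In bulk RNA, fewer dividing cells and less RNA per dividing cell cannot be told apart.

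In TKO against WT, 4 of the 53 members rose and 18 fell, while 31 did not pass (limma on log2(signal + 1), adjusted p under 0.05 over all 12649 genes tested). That is 41.5% of members, beside a background of 45.8% of genes (23.2% rose and 22.7% fell). The share called was thus close to the background. The split was 7.55% higher and 34% lower among the members. Their median log2 fold change was -0.23, with 12 above 0 and 41 below, beside a median of -0.001 over all genes tested. WT and TKO did not overlap in 4 members that were higher and 23 that were lower, where 58.8% of all genes had no overlap, 29.4% in each direction. Cdc20 and Mki67, both used as marks of cycling cells, lay at the opposite ends of the list. With scaling by library size alone, which shifted the median of all genes to 0.114, the members split into 4 higher and 9 lower, against 30.2% and 15.1% of all genes. Those that no longer passed under that scaling were Aspm, Incenp, Kif15, Kif23, Nuf2, Nusap1, Plk4, Prc1 and Ttk.

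**Figure D1:**
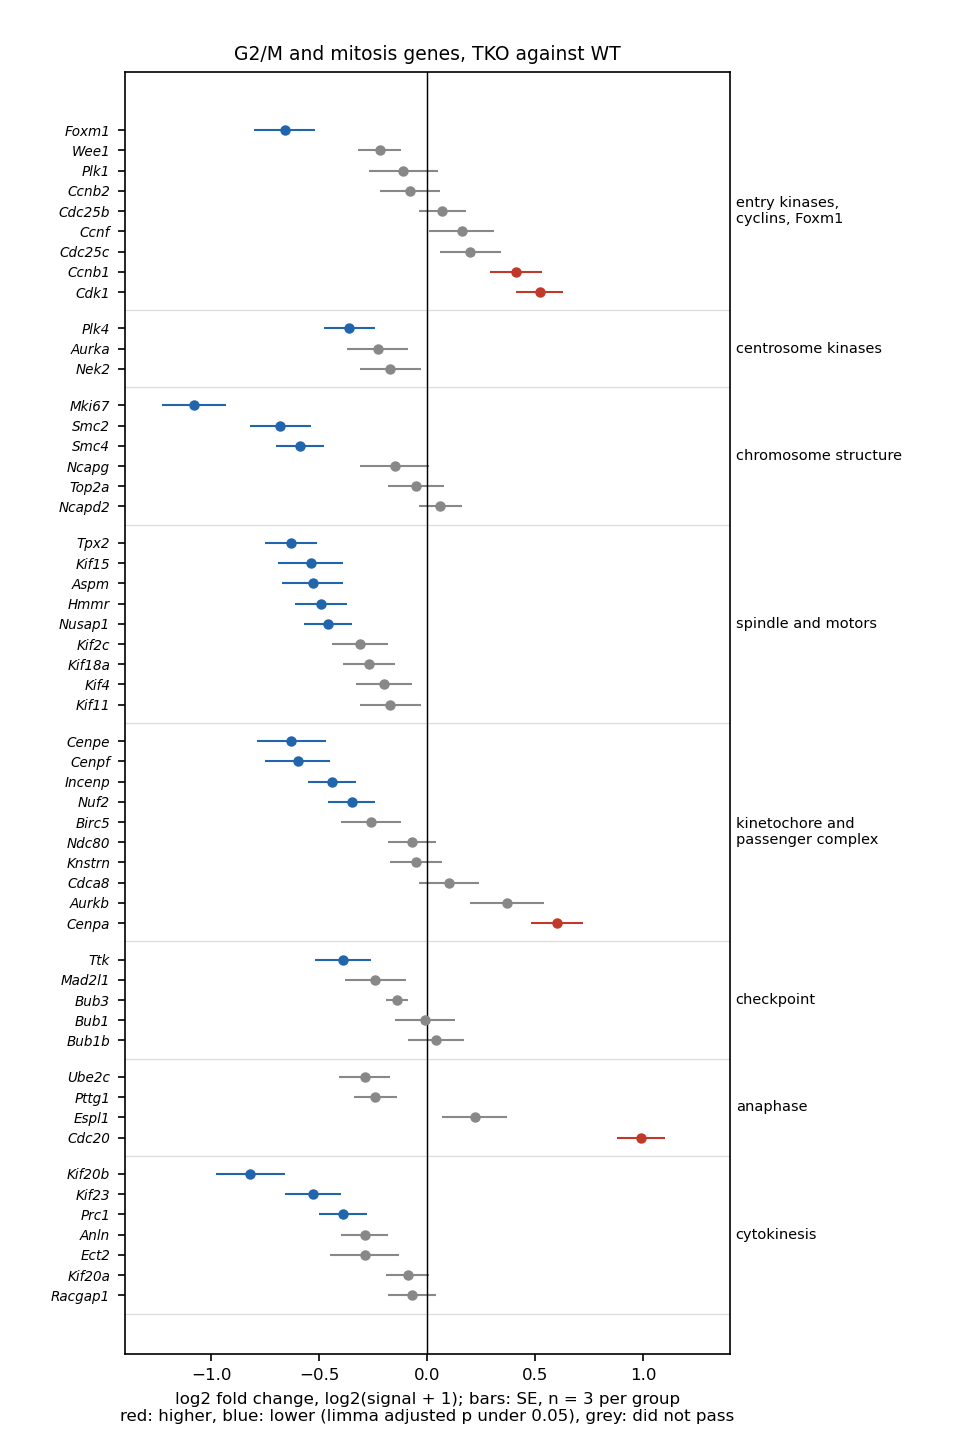
Log2 fold change in TKO against WT on the log2(signal + 1) scale for the 53 members, grouped by role, with bars for the standard error (n = 3 per group). Red points are the 4 members that rose, blue points the 18 that fell and grey points the 31 that did not pass, from -1.08 (Mki67) to 0.99 (Cdc20).

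Among the 9 genes of mitotic entry, 2 rose and 1 fell. The counts by role given here and below stand beside 23.2% of all genes that rose and 22.7% that fell. Cdk1, the kinase that drives entry, read 55.5, 51.9 and 52.3 in WT against 65.2, 85.5 and 81.6 in TKO. Each TKO library was above each WT library, with a log2 difference of 0.52 ± 0.11 (standard error, SE, with 3 libraries per group; limma adjusted p = 0.0084). Its partner cyclin Ccnb1 read 30.5, 28.6 and 29.1 in WT against 32.7, 40.4 and 45.7 in TKO, a difference of 0.41 ± 0.12 (limma adjusted p = 0.033). The groups did not overlap, but TKO replicate 1 lay just above the highest WT library. Ccnb2, the other B-type cyclin on the list, read 31.7, 32.7 and 32.0 in WT against 24.0, 35.6 and 32.5 in TKO and did not pass (-0.08 ± 0.14). Foxm1, the transcription factor of late cell cycle genes, went from 67.4, 69.6 and 63.7 to 34.3, 42.4 and 50.6. That is a fall with no overlap, of -0.66 ± 0.14 (limma adjusted p = 0.0083). The 5 other genes, Plk1, Wee1, Ccnf, Cdc25b and Cdc25c, lay between -0.22 and 0.20 and did not pass. Of the 3 centrosome kinases, Plk4, which starts centriole duplication, read 45.1, 46.9 and 40.1 in WT against 30.1, 33.1 and 39.8 in TKO, a fall of -0.36 ± 0.12 (limma adjusted p = 0.044). The highest TKO library lay just under the lowest WT library. Aurka (-0.23 ± 0.14), a spindle pole kinase, and Nek2 (-0.17 ± 0.14), a kinase of centrosome separation, overlapped between the groups and did not pass.

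Chromosome structure held the deepest fall. Mki67, which coats mitotic chromosomes and is the antigen of the Ki-67 stain for proliferation, read 440, 440 and 382 in WT against 167, 188 and 247 in TKO. No library of one group reached the other, and the group means of 420 ± 33.4 and 201 ± 41.3 (SD, n = 3) differed by -1.08 ± 0.15 on the log2 scale (SE, limma adjusted p = 0.0019). Smc4, a condensin core subunit, read 221, 196 and 195 in WT against 121, 129 and 157 in TKO (-0.59 ± 0.11, limma adjusted p = 0.0056). Its partner Smc2 read 152, 147 and 132 against 84.7, 76.7 and 110 (-0.68 ± 0.14, limma adjusted p = 0.0076). Both core subunits were lower in every TKO library than in any WT library. The condensin I subunits Ncapg (-0.15 ± 0.16) and Ncapd2 (0.06 ± 0.10) overlapped between the groups. Top2a, the topoisomerase that untangles sister chromatids, read 241, 226 and 215 in WT against 193, 206 and 265 in TKO, a range that spans that of WT (-0.05 ± 0.13, limma adjusted p = 0.77).

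**Figure D2:**
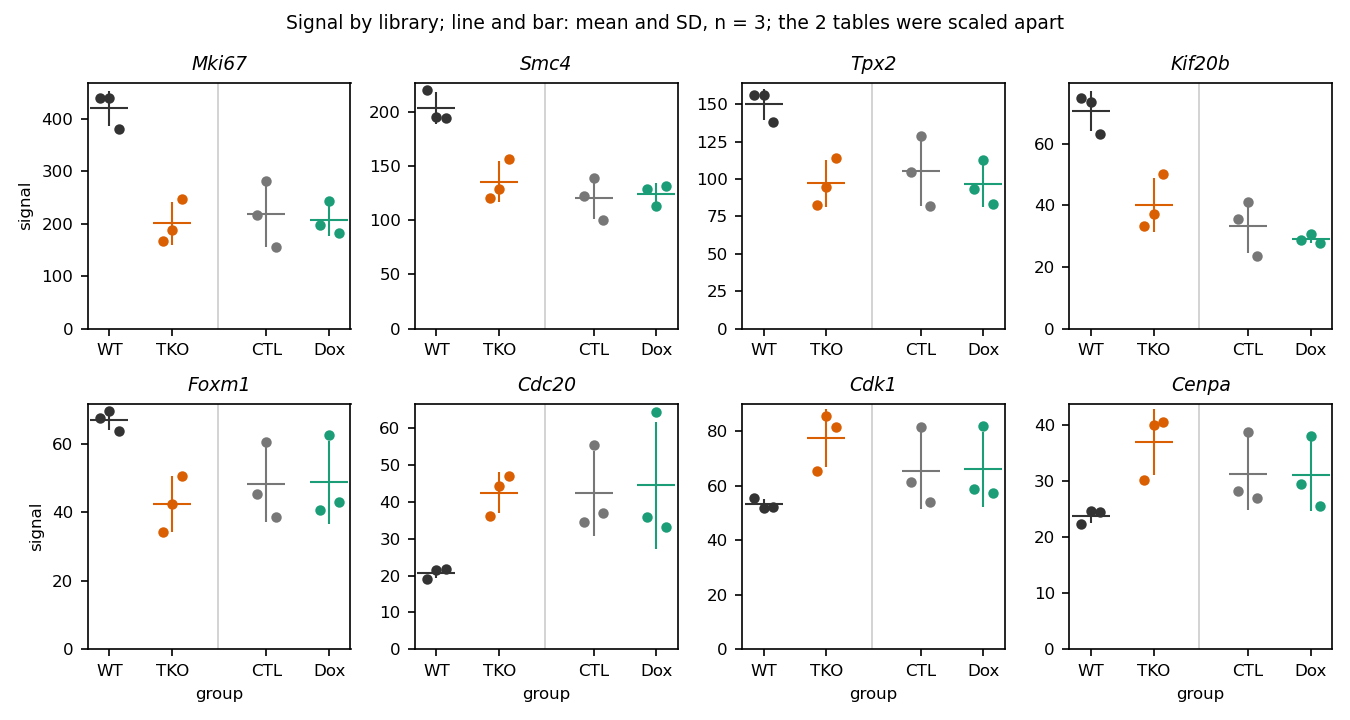
Signal in each library for 5 members that fell in TKO (Mki67, Smc4, Tpx2, Kif20b, Foxm1) and 3 that rose (Cdc20, Cdk1, Cenpa), with the mean and SD of each group (n = 3), axes starting at 0. WT and TKO points do not overlap in these 8 panels, and CTL and Dox points do, but the 2 tables were scaled apart, so levels are compared only within WT and TKO or within CTL and Dox.

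All 9 spindle genes were below 0, and 5 fell. That count depended on the processing. It was 2 with library-size scaling, and 2 with a trend on transcript length and GC content removed, where 1 gene was above 0. Tpx2, which activates Aurka at the spindle, read 156, 156 and 138 in WT against 82.9, 94.8 and 114 in TKO (-0.63 ± 0.12, limma adjusted p = 0.0063). Nusap1, a microtubule bundler, read 40.6, 40.9 and 39.0 against 24.3, 31.3 and 31.7 (-0.46 ± 0.11, limma adjusted p = 0.014). Hmmr, a spindle pole protein, read 88.7, 80.6 and 72.3 against 51.2, 54.5 and 66.3 (-0.49 ± 0.12, limma adjusted p = 0.016). These 3 had no overlap between the groups, and in each the WT libraries were the high ones. Aspm, a spindle pole protein, and the motor Kif15 also fell, by 0.53 and 0.54 on the log2 scale. The motors Kif11, Kif18a, Kif4 and Kif2c lay between -0.31 and -0.17 and did not pass.

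Kinetochore and passenger complex genes split, with 1 of 10 higher and 4 lower. The split was 1 higher and 2 lower with library-size scaling, and 1 higher and 3 lower with the length and GC trend removed. Cenpa, the histone H3 variant that marks the centromere, read 22.2, 24.6 and 24.5 in WT against 30.2, 40.0 and 40.5 in TKO. All 3 TKO libraries were above WT, a rise of 0.60 ± 0.12 (limma adjusted p = 0.0080). Cenpf, a large protein of the outer kinetochore, read 79.1, 73.5 and 66.5 in WT against 43.1, 41.7 and 59.9 in TKO (-0.60 ± 0.15, limma adjusted p = 0.016). The kinetochore motor Cenpe read 107, 103 and 85.2 against 59.2, 53.6 and 78.6 (-0.63 ± 0.16, limma adjusted p = 0.017). Incenp, the scaffold of the chromosomal passenger complex, read 59.1, 66.5 and 59.6 against 38.8, 48.1 and 49.7 (-0.44 ± 0.11, limma adjusted p = 0.016). The fourth to fall was Nuf2 (-0.35 ± 0.11), whose partner in the Ndc80 complex, Ndc80, was at -0.07 ± 0.11. The other passenger complex members did not pass: Birc5 was at -0.26 ± 0.14, Cdca8 at 0.10 ± 0.14 and the kinase Aurkb at 0.37 ± 0.17. The 4 subunits of this complex thus had estimates from -0.44 to 0.37, a spread that was not tested.

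Of the 5 checkpoint genes only the kinase Ttk fell, from 20.5, 19.2 and 16.7 to 12, 14.4 and 16.2 (-0.39 ± 0.13, limma adjusted p = 0.044), with the highest TKO library just under the lowest WT one. Bub3 read 95.2, 94.6 and 94.1 in WT against 83.7, 84.4 and 88.9 in TKO, a narrow gap without overlap that did not pass (-0.14 ± 0.05, limma adjusted p = 0.071). Mad2l1, the Mad2 protein that holds Cdc20, read 56.7, 59.3 and 54.2 against 37.7, 53.8 and 54.1 and did not pass (-0.24 ± 0.14). Bub1 and Bub1b were at -0.01 and 0.04.

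Anaphase held the largest rise among the members. Cdc20 read 19.0, 21.5 and 21.7 in WT against 36.2, 44.3 and 47.0 in TKO, so that every TKO library was well above WT. The group means were 20.8 ± 1.49 and 42.5 ± 5.59 (SD, n = 3), a log2 difference of 0.99 ± 0.11 (SE, limma adjusted p = 9.6e-04). Ube2c, the ubiquitin-conjugating enzyme that works with the same ligase, read 44.0, 48.1 and 45.9 against 31.0, 42.5 and 39.3 and did not pass (-0.29 ± 0.12, limma adjusted p = 0.085). Securin, Pttg1, read 11.9, 10.5 and 11.2 against 9.02, 10.6 and 8.50 (-0.24 ± 0.10, limma adjusted p = 0.10), and separase, Espl1, was at 0.22 ± 0.15.

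In cytokinesis 3 of 7 genes fell and the other 4 were between -0.29 and -0.07. Only 1 fell with library-size scaling, and 2 fell with the length and GC trend removed. Kif20b, a motor of the midbody, read 75.0, 73.7 and 63.2 in WT against 33.2, 37.2 and 50.1 in TKO (-0.82 ± 0.16, limma adjusted p = 0.0061). Kif23, the motor of centralspindlin, read 55.7, 55.2 and 50.7 against 30.4, 38.5 and 43.3 (-0.53 ± 0.13, limma adjusted p = 0.016). Prc1, which cross-links the central spindle, read 140, 142 and 129 against 88.2, 107 and 118 (-0.39 ± 0.11, limma adjusted p = 0.028). In all 3 the WT libraries were above the TKO libraries. Racgap1, the partner of Kif23 in centralspindlin, was at -0.07 ± 0.11 with overlap, and Kif20a, the closest relative of Kif20b on the list, at -0.09 ± 0.10.

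The calls differed in how firmly they held. Cdk1, Cenpa, Cdc20, Foxm1, Mki67, Smc2, Smc4, Tpx2 and Kif20b passed under all 17 alternatives run for this comparison. Leaving out WT replicate 2 ended the other 13 calls, with limma adjusted p from 0.056 (Cenpf, Nusap1) to 0.15 (Plk4), and left 3 members higher and 6 lower, where 16.4% and 14.7% of all genes passed. Leaving out WT replicate 1 left 3 and 7 (17.7% and 15.9% of all genes), and leaving out TKO replicate 1 gave 9 higher and 14 lower (22.9% and 22.3% of all genes), with Aurkb (0.58), Ccnf (0.34), Cdc25c (0.35), Cdca8 (0.26) and Espl1 (0.40) added to the rises. Without WT replicate 3 the counts were 3 and 17 (19.3% and 17.5% of all genes), without TKO replicate 2 they were 3 and 15 (22.3% and 21.7%), and without TKO replicate 3 they were 3 and 23 (22.3% and 22.1%). Ccnb1 passed only with WT replicates 1 to 3 and TKO replicates 2 and 3 all present (limma adjusted p from 0.068 to 0.11 without one of them).

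The TKO libraries stood apart from each other along these genes. TKO replicate 1 was the lowest of its group in 49 of 53 members and TKO replicate 3 the highest in 46, where over all genes these shares were 33.6% and 31.5%. The median member deviated from its TKO mean by -0.24, 0.05 and 0.21 on the log2 scale in replicates 1, 2 and 3, and the median of all genes by no more than 0.00 in each. In WT the same deviations were 0.03, 0.04 and -0.06. The median log2 fold change of the members was -0.10 without TKO replicate 1 and -0.32 without TKO replicate 3. Marker sums also differed between these libraries. The 4 adipocyte markers listed (Adipoq, Plin1, Fabp4, Cidec) summed to 115, 112 and 28.9 in TKO and to 28.1 to 30.9 in WT, the 10 leukocyte markers to 57.5, 281 and 51.6 in TKO and 38.7 to 64.9 in WT, and the 5 epithelial markers to 11.3, 22.9 and 87.8 in TKO and 15.6 to 47.8 in WT. The 5 endothelial markers summed to 56.6 to 128 in TKO and 77.6 to 99.9 in WT. Of the 7 progenitor markers 2 fell in TKO and 0 rose (28.6% called, beside 45.8% of all genes). Thy1 was at -0.86 ± 0.15 (limma adjusted p = 0.0043) and Pdgfrb at -0.47 ± 0.12 (limma adjusted p = 0.017). The 3 with estimates above 0 were Ly6a (0.81 ± 0.32), Cd34 (0.35 ± 0.28) and Col1a1 (0.18 ± 0.13). Ly6a passed as higher with library-size scaling (0.94, limma adjusted p = 0.044). The part of all these markers in the result was not tested.

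**Figure D3:**
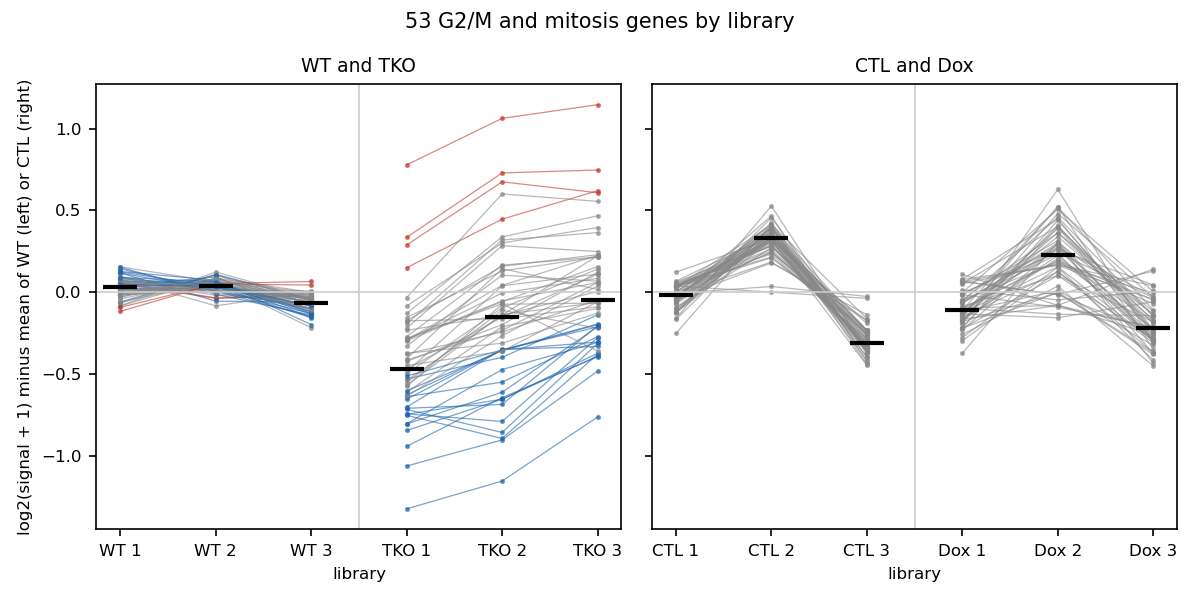
Each member's log2(signal + 1) in each library minus its mean in WT (left panel) or CTL (right panel), 1 point per gene and library, with the median as a black bar and thin lines joining the points of a gene within a group, whose libraries have no order. TKO replicate 1 is lowest in 49 of 53 members, and CTL replicate 2 and Dox replicate 2 are the high libraries of their groups in 52 and 46.

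Longer genes tended to be lower in TKO, among the members as in the whole table. Across the 53 members the log2 fold change had a Spearman rho of -0.42 with coding length and 0.45 with GC content of the transcript, and across all genes tested rho was -0.28 and 0.31. These are descriptions across genes of the same 6 libraries, and genes are not independent replicates. The 4 members that rose had coding lengths of 402 to 1497 bases and the 18 that fell 1281 to 9531. Among the 10 members with the longest coding sequence (Smc4, Kif15, Ncapd2, Top2a, Kif20b, Espl1, Cenpe, Cenpf, Aspm, Mki67) 0 rose and 7 fell, with a median of -0.56. Among the 10 shortest (Cenpa, Birc5, Ube2c, Pttg1, Mad2l1, Cdca8, Cdk1, Knstrn, Bub3, Aurkb) 2 rose and 0 fell, with a median of -0.10. After a smooth trend on transcript length and GC content was removed from each library, these medians were -0.30 and -0.01. The count was then 4 higher and 14 lower, where 22.5% and 23.4% of all genes passed. Of the 22 calls 14 were kept. Those lost were Aspm, Cenpf, Hmmr, Kif15, Nuf2, Plk4, Prc1 and Ttk, and those gained, all lower, were Birc5 (-0.52), Bub3 (-0.21), Pttg1 (-0.42) and Ube2c (-0.56). Mki67 stayed at -0.81 (limma adjusted p = 0.0041) and Cdc20 at 0.74 (limma adjusted p = 0.0020).

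**Figure D4:**
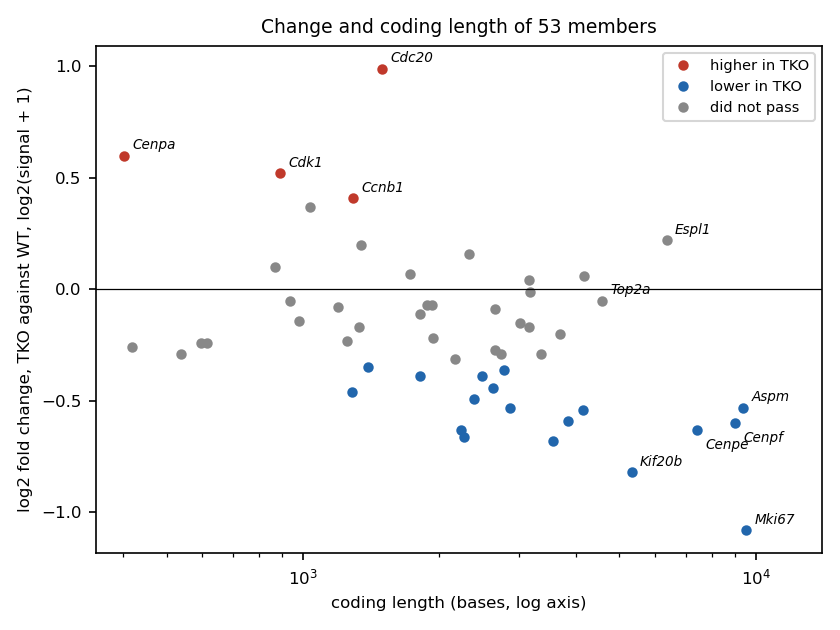
Log2 fold change in TKO against WT, on the log2(signal + 1) scale, against coding length in bases on a log axis for the 53 members. The 4 members that rose (red) lie at 402 to 1497 bases, and 7 of the 10 longest members fell (blue).

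Ratios between 2 members of 1 library do not depend on the scaling of that library, and 6 pairs chosen after their values were seen are given as a description, with no test. The length and GC trend was not removed from these ratios. Some pairs differ much in coding length, such as Cdc20 and Mki67. The ratio of Mki67 to Top2a, both genes of chromosome structure, was 1.82, 1.94 and 1.78 in WT against 0.866, 0.912 and 0.932 in TKO. In CTL it was 1.19, 1.18 and 1.08, and in Dox 1.02, 1.17 and 1.01, so only in the 3 WT libraries was it above 1.2. Cdc20 over Mki67 was 0.0433, 0.0489 and 0.0569 in WT and 0.190 to 0.236 in TKO, while CTL ran from 0.160 to 0.236 and Dox from 0.182 to 0.266. The 3 WT libraries were again the ones apart. Smc4 over Ncapd2 was 2.60 to 3.00 in WT and 1.59 to 1.82 in TKO, and from 1.03 to 1.92 over CTL and Dox. Kif20b over Kif20a was 0.706 to 0.808 in WT and 0.281 to 0.512 in the other 9 libraries. Cenpa over Cenpe was 0.207 to 0.287 in WT and 0.425 to 0.746 elsewhere. Cdk1 over Ccnb2 was 1.59 to 1.75 in WT, 2.40 to 2.72 in TKO and 1.97 to 2.18 in CTL and Dox. In these 6 chosen ratios the WT libraries did not overlap with any of the other 9. The WT and the CTL libraries also differ by transgenes, table and depth, which cannot be told apart.

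Per kilobase of transcript, the level of the members spanned more than 10-fold within a group. In WT the highest mean signal per kilobase was that of Ube2c (47.6), followed by Smc4 (47.3), Prc1 (45.3), Top2a (43.6), Bub3 (42.7) and Mki67 (41.8), and the lowest was that of Espl1 (2.64). In TKO Top2a (42.4), Ube2c (38.9) and Bub3 (38.6) were highest, Mki67 stood at 20 and Cdc20 at 23.7, and Espl1 (3.16) was lowest. Mki67 was thus sixth in WT and below Cdc20 in TKO, while Cdc20, at 11.6 per kilobase in WT, was below 35 other members there. In CTL and Dox Bub3 led (39.9 and 40.4), with Cdc20 at 23.6 and 24.9 and Mki67 at 21.7 and 20.6, and Kif18a was lowest (2.56 and 2.42). Neighbours in these orders often differ by less than the spread of their libraries.

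Other genes of the same pathways were grouped by role, in lists written with earlier results of these data known. The shares called in these 5 lists were 39.1% to 57.1%, beside 45.8% of all genes, so the counts are descriptions near the background. Of 46 other mitotic genes tested 6 rose and 12 fell (39.1% called), with a median of -0.24. Ckap2l, a spindle pole protein, went from 102, 105 and 88.6 to 45.8, 49.3 and 54.2 (-0.97 ± 0.09, limma adjusted p = 5.9e-04). Kifc1, a minus-end motor, went from 7.73, 7.90 and 8.88 to 15.3, 17.8 and 19.2 (1.01 ± 0.11, limma adjusted p = 7.6e-04), and the checkpoint protein Mad1l1 was at -0.35 ± 0.06 (limma adjusted p = 0.0050). With library-size scaling this list counted 11 higher and 6 lower, so its balance depends on the scaling. Of 16 genes of the anaphase-promoting complex and its partners, 6 rose and 2 fell (50% called), with the subunit Anapc2 at 0.48 ± 0.06, the chain-elongating enzyme Ube2s at 0.75 ± 0.09 and the subunit Anapc10 at -0.69 ± 0.07. This list counted 10 higher and 2 lower with library-size scaling, and 5 higher and 4 lower with the length and GC trend removed. Of 11 further condensin and cohesin genes 1 rose and 5 fell (54.5% called), led by the cohesin core subunits Smc3 (-0.99 ± 0.08) and Smc1a (-0.82 ± 0.08) and the regulator Pds5b (-0.66 ± 0.09). Of 19 E2F, DREAM and MuvB genes 1 rose and 8 fell (47.4% called), and 5 fell with library-size scaling. The repressor E2f8 was at -1.18 ± 0.12, the CHR-binding subunit Lin54 at -0.85 ± 0.11 and the histone-binding subunit Rbbp4 at 0.62 ± 0.07. Of 7 inhibitors of cyclin-dependent kinases 3 rose and 1 fell (57.1% called): Cdkn1a, which is p21, read 153, 172 and 139 in WT against 331, 206 and 210 in TKO (0.65 ± 0.19, limma adjusted p = 0.031), Cdkn2d rose by 0.69 ± 0.10, and Cdkn1b, which is p27, fell by 0.67 on the log2 scale. TKO replicate 1, where most members were lowest, was the library with the highest Cdkn1a. In WT the highest Cdkn1a was in replicate 2, where 28 of 53 members were highest. A link between the 2 was not tested. With the length and GC trend removed, Cdkn1a (0.46, limma adjusted p = 0.12) and Ube2s (0.37, limma adjusted p = 0.070) did not pass, Cdkn1c was lower (-0.68, limma adjusted p = 0.037), and the inhibitors counted 1 higher and 2 lower.

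In Dox against CTL, no member passed. The count was 0 of 53 in either direction, and 0% of all 12634 genes passed this limma test. At an unadjusted p under 0.05, 0 members and 5.92% of all genes were below the threshold, and edgeR (0% of all genes) and DESeq2 (0.784%) on recovered reads also called 0 members. CTL and Dox libraries with the same number deviated together, so a fit with the replicate number as a block was also made. It called 2.1% of all genes (0.562% higher and 1.54% lower) and 0 members, the smallest adjusted p among them being 0.22. In that paired fit the members ran from -0.22 to 0.17 with standard errors of 0.07 to 0.13, and 25 were above 0 and 28 below. At an unadjusted p under 0.05 it held 2 members, Cenpe and Cenpf, against 17.3% of all genes. Changes larger than these errors could also be missed, since the estimate of -0.22 did not pass. The missed threshold does not show that the groups were alike.

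**Figure D5:**
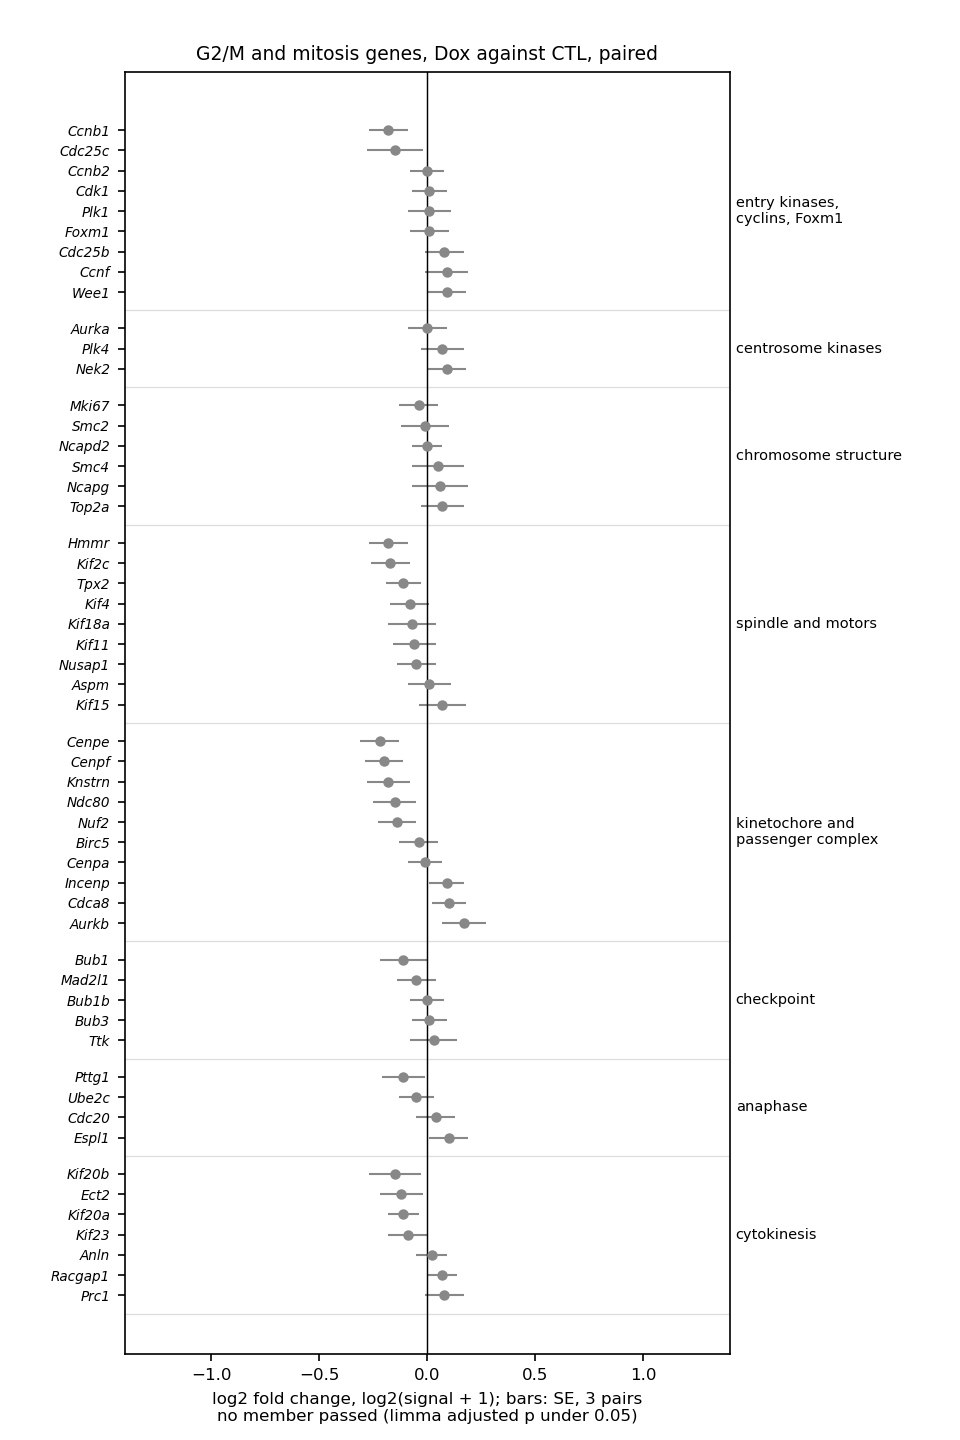
Log2 fold change in Dox against CTL on the log2(signal + 1) scale for the 53 members by role, from the paired fit, with bars for the standard error (3 pairs), on the same axis as for TKO. All points are grey because 0 of 53 passed, and they lie between -0.22 (Cenpe) and 0.17 (Aurkb).

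The markers showed no common direction between the pairs. Mki67 read 217, 282 and 156 in CTL and 198, 243 and 182 in Dox, so that Dox was lower in pairs 1 and 2 and higher in pair 3 (-0.04 ± 0.09, paired limma adjusted p = 0.87). Cdc20 read 34.6, 55.5 and 36.9 in CTL and 36.0, 64.5 and 33.3 in Dox (0.04 ± 0.09, paired limma adjusted p = 0.87). Cenpe read 66.3, 80.7 and 47.2 in CTL and 52.7, 64.9 and 46.0 in Dox, lower in each of the 3 pairs (-0.22 ± 0.09, paired limma adjusted p = 0.22). Cenpf, also of the outer kinetochore, read 47.2, 56.9 and 35.0 in CTL and 38.9, 45.4 and 34.7 in Dox (-0.20 ± 0.09, paired limma adjusted p = 0.28). In both genes the groups overlapped, and pair 3 differed by no more than 0.04 on the log2 scale. Hmmr (-0.18 ± 0.09) and Ccnb1 (-0.18 ± 0.09) were lower in every pair as well, and did not pass. Only Pttg1, at 10.1, 9.81 and 9.53 in CTL and 8.86, 8.70 and 9.38 in Dox, had no overlap between the groups (-0.11 ± 0.10), where 12.2% of all genes had none, 6.5% with Dox higher and 5.66% with Dox lower. Smc2 and Smc4 were lower in pair 2, by 0.30 and 0.29, and higher in pair 3, by 0.30 and 0.40. Without pair 3, the paired fit called 1 member, Kif20b (-0.35, limma adjusted p = 0.049), and with all 3 pairs Kif20b was at -0.15 ± 0.12.

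Replicates of a group differed along these genes in a shared way. CTL replicate 2 was the highest of its group in 52 of 53 members and CTL replicate 3 the lowest in 52. Dox replicate 2 was highest in 46 and Dox replicate 3 lowest in 44. Replicate 2 was the highest in both groups in 46 of the 53, against 18.1% of all genes. The signal in replicate 2 over the mean of replicates 1 and 3 had a median over members of 1.42 in CTL (from 1.00 to 1.74) and 1.31 in Dox (from 0.87 to 1.86). Foxm1, for instance, read 45.4, 60.5 and 38.7 in CTL and 40.6, 62.6 and 42.8 in Dox, and Plk1, the kinase active from entry to cytokinesis, 41.9, 50.3 and 32.8 against 37.0, 59.4 and 32.0. Marker levels did not run in 1 order. Replicate 1 was highest in both groups for summed leukocyte markers (162 in CTL and 136 in Dox), epithelial markers (172 and 185), endothelial markers (105 and 138) and progenitor markers (20914 and 21112). Single progenitor markers differed in their order. Pdgfra read 713, 1082 and 611 in CTL and 596, 925 and 517 in Dox, highest in replicate 2 as most members were. Dcn read 1103, 1240 and 630 in CTL against 780, 944 and 600 in Dox, and Cd34 was also highest in replicate 2 of both groups. Col1a1 was highest in replicate 1 and Ly6a in replicate 3 of both groups. Pdgfrb was lowest in replicate 2 of both groups (986 in CTL and 1164 in Dox), and Thy1 was lowest there in CTL (453). The 3 adipocyte markers listed summed to 36.9 to 52 in CTL and 32.7, 40.2 and 33.4 in Dox. The part of these markers in the replicate differences was not tested. In the paired fit 1 of 7 progenitor markers fell, Ly6a (-0.60 ± 0.13, paired limma adjusted p = 0.047). Of 5 endothelial markers 1 rose, Kdr (0.51 ± 0.08, paired limma adjusted p = 0.023). Over all genes 0.562% rose and 1.54% fell in that fit. No tested leukocyte, epithelial or adipocyte marker passed. Without the block neither Ly6a nor Kdr passed (limma adjusted p = 0.97 and 0.44).

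Among the related lists in the paired fit, 1 of 46 other mitotic genes fell (2.17%, beside 1.54% of all genes that fell). It was Zwint, a kinetochore protein, at 111, 121 and 127 in CTL and 83.3, 91.8 and 92.5 in Dox (-0.42 ± 0.07, paired limma adjusted p = 0.025). Of 7 inhibitors of cyclin-dependent kinases 1 fell (14.3%, beside the same 1.54%), Cdkn1c. It read 16.1, 20.7 and 15.4 in CTL against 10.5, 16.1 and 8.86 in Dox (-0.55 ± 0.11, paired limma adjusted p = 0.039). Without the block the limma adjusted p were 0.43 and 0.82. DESeq2 without the block called Zwint (adjusted p = 0.0060) and not Cdkn1c (0.62), and the paired fit without replicate 1 called neither (limma adjusted p = 0.17 and 0.15). No gene of the anaphase-promoting complex, the condensin and cohesin list or the E2F, DREAM and MuvB list passed in that fit, where the smallest adjusted p were 0.27, 0.36 and 0.26.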

How the data were processed

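Messenger RNA libraries from total RNA were prepared with a stranded kit, per the labels' protocols. The submitters' processing notes list TopHat2 2.0.12, featureCounts 1.4.6, edgeR 3.8.6 and StringTie 1.2.2 with GRCm38, without roles; the strand setting is not given in the sources used here. The deposited signal is read counts scaled by the authors to a common library size and 1 factor per library. Dividing by the smallest step of a library recovered whole reads (100% of values within 0.1). The authors' deposited log2 fold changes, p-values and false discovery rates were used only where named, and their score was not used. The planned count test was replaced, since the values were scaled: limma 3.58.1 with a trend (R 4.3.3) was fitted to log2(signal + 1) for genes whose signal reached 1 in 3 or more of the 6 libraries. P-values were adjusted by Benjamini-Hochberg over all genes tested. The 2 tables were scaled apart and fitted apart. The 17 alternatives in TKO against WT included edgeR 4.0.16 and DESeq2 1.42.0 on recovered reads, library-size scaling and median centring. Others added 0.1 or 5 in place of 1, used no filter or a signal of at least 5, or used the replicate block. The rest removed the length and GC trend, without and with that block, or left out a library. With no filter Plk4 and Ttk did not pass, and median centring added Anln, Bub3 and Ube2c. The limma and edgeR fits were also run on simulated counts. Those counts held neither the length and GC trend nor shared replicate deviations, so they cannot vouch for the fits to these data. Same-numbered CTL and Dox libraries deviated together over genes (r = 0.86, 0.58 and 0.74), so the replicate number was used as their pairing. The columns of Dox replicates 2 and 3 share a sequencing suffix, so their identity rests on the replicate number. Lengths, coding parts and 3' UTRs came from 1 GENCODE vM21 transcript per gene. Members and lists were chosen with earlier results of these data known. Members named with values were the markers, up to 3 per role with the smallest p in TKO and up to 2 in the paired Dox fit, and up to 3 past the threshold per related list; further members are named by call, range or estimate, and Ccnb2 and Top2a in TKO and Foxm1, Plk1, Smc2 and Smc4 in Dox are given with values by library or pair outside that rule, chosen after their values were seen. Dlgap5, Bora, Rad21, Wapl and Cdkn3 are not analysed here.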

Additional observations from a re-analysis of the deposited data

How the results depend on the processing

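In TKO against WT the members counted 4 higher and 18 lower. With library-size scaling 9 were lower, and in that alternative the median of all genes lay 0.114 above 0. Over the fits that each left out one library, the count higher ran from 3 to 9 and the count lower from 6 to 23; fewer libraries also lower the power of the test. The median log2 fold change of the members stayed below 0 in all 17 alternatives, from -0.32 to -0.10. edgeR gave 4 higher and 17 lower, and DESeq2 gave 4 and 19. Same-numbered WT and TKO libraries did not all deviate together (r = 0.45, -0.13 and -0.29), so the main fit did not pair them. These correlations cannot show whether the libraries shared a day or a batch. With the replicate block 3 members were higher and 14 lower, and Ccnb1, Nuf2, Plk4, Prc1 and Ttk did not pass. In Dox against CTL the replicate block called 0 members, as did the other alternatives, except that the paired fit without replicate 3, chosen after seeing the data like the other paired fits on fewer libraries, called 1 lower. No change in a called member reversed its sign. The cause of these differences was not tested. Counting error was not measured apart from the spread between libraries; the lowest member value, in CTL, stood for 133 reads.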
